A study of Mus musculus with 6 samples.

Results

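Oxidative phosphorylation is carried out by 5 protein complexes of the inner mitochondrial membrane. Complexes I to IV pass electrons from NADH and succinate to oxygen and most of them pump protons, and complex V, the ATP synthase, uses the proton gradient to make ATP. The subunits are encoded in both genomes of the cell. Mitochondrial DNA encodes core subunits of complexes I, III, IV and V and is read as long transcripts that are cut into single mRNAs, while the nuclear genes are transcribed singly, largely by factors such as NRF1 and GABP, and their proteins are imported. Complex II is wholly nuclear. The genes described here are the 97 of 41388 listed genes that encode these subunits, 84 in the nuclear genome and 13 in the mitochondrial genome. They were chosen by name, as protein-coding genes whose symbols begin with Nduf, Sdh, Uqcr, Cox4 to Cox8 or Atp5 in the subunit series, plus every protein-coding gene of the mitochondrial chromosome. Another 10 matches by name are not protein coding and were left out. The nuclear genes were 37 of complex I, 4 of complex II, 8 of complex III, 18 of complex IV and 17 of complex V, and the mitochondrial ones were 7, 0, 1, 3 and 2 in the same order. The choice by name takes in Atp5s, a coupling factor, and Ndufa4, which is now placed in complex IV. It leaves out Ndufab1, Cyc1, Cycs and the inhibitor Atpif1.

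The cells were KP2, a low-passage mouse pancreatic cancer line on the C57BL/6J background that was derived from a KPC tumour mouse, a genetically engineered pancreatic cancer model. There were 2 libraries in each of 3 groups: wild-type cells, cells whose Irak4 was knocked out with lentiviral CRISPR vectors (KO), and KO cells with a rescue of Irak4 (rescue). IRAK4 is a kinase of innate immune signalling, acting downstream of interleukin-1 and Toll-like receptors. Neither the rescue construct, nor whether the KO cells are a clone, nor whether wild-type cells carried a vector is given in the sources used here. The labels do not say that a group's libraries came from separate cultures. The spread behind each p-value is therefore that between these libraries, which may be technical. The RNA was oligo-dT selected. The question for these genes is how the nuclear and the mitochondrial subunit mRNAs changed with the loss of Irak4 and with its return.

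Totals ran from 7605328 to 11505983 counts per library. Irak4 itself stood at 37.9 and 37.6 normalised CPM (counts per 1000000 counts of the library, scaled by TMM factors) in wild type, 20.4 and 21.8 in KO cells and 492 and 211 in rescued cells. The KO value is a log2 fold change of -0.84 ± 0.33 (SE) with an adjusted p of 0.057, and a mutation made by CRISPR need not remove the mRNA. The rescue libraries differed from each other in Irak4 and in the mitochondrial mRNAs below, so results are also given without each of them. The summed level of 8 pancreatic epithelial markers was 7040 and 6728 normalised CPM in wild type, 3902 and 4006 in KO cells and 4778 and 5638 in rescued cells. Krt8, Krt18 and Krt19 made up most of it, and Epcam had 1 count in all libraries together. Lists of fibroblast, leukocyte and acinar markers each summed to at most 21.2 normalised CPM. Their main members were Col1a1 of fibroblasts (709 counts), Cd68 of leukocytes (230) and the acinar Prss2 (106) and Cela1 (66). Ptprc of leukocytes had 2 counts and Dcn, Lum and Cpa1 had 0. Of 3 endothelial markers, Cdh5 stood at 2.97 and 3.62 in wild type, 15.9 and 30.5 in KO cells and 37.8 and 14.6 in rescued cells, Kdr stood at 1.54 and 1.66 in wild type and at most 0.133 in the other libraries, and Pecam1 had 3 counts. The epithelial sum and Cdh5 move with the KO, and their part in the results below was not tested. In such bulk RNA, fewer cells of a type and less RNA per cell cannot be told apart.

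Only 7 of the 13 mitochondrial mRNAs could be followed in these counts. Along the mitochondrial chromosome, mt-Nd1, mt-Nd2 and mt-Co1 had 156184, 74450 and 303888 counts summed over the 6 libraries. The next 6 genes on the chromosome, mt-Co2, mt-Atp8, mt-Atp6, mt-Co3, mt-Nd3 and mt-Nd4l, had 0, 0, 0, 0, 2 and 0. They encode subunits II and III of cytochrome oxidase, the 2 mitochondrial subunits of the ATP synthase and 2 of complex I, and a count of 0 allows up to 3 counts. Counts resumed at mt-Nd4 with 50162, mt-Nd5 with 91284, mt-Nd6 with 25205 and mt-Cytb with 173459. Complex V was therefore followed through nuclear genes alone, and the mitochondrial part of complex IV through mt-Co1 alone.

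The genes without counts lie in a stretch of mitochondrial DNA that has a copy in the nuclear genome. GENCODE annotates 7 genes on the minus strand of chromosome 1, from 24611535 to 24616197 in GRCm38, whose transcripts match mitochondrial genes. Of all 50-base words in the transcript, mt-Co2 shared 100% with an annotated gene elsewhere, mt-Co3 99.9%, mt-Atp6 99.5%, mt-Nd4l 98.8% and mt-Nd3 98.0%. For the genes with counts the shares were lower: 62.2% for mt-Nd4, 51.1% for mt-Co1, 8.19% for mt-Nd2, 7.61% for mt-Nd5 and 0 for mt-Nd1, mt-Nd6 and mt-Cytb. Aligned without gaps, the copies of mt-Co2 (Gm28661, 681 bases), mt-Co3 (Gm28437, 783 bases), mt-Atp6 (Gm10925, 678 bases) and mt-Nd4l (Gm10222, 294 bases) had 0 mismatches, and so had the first 876 of the 1378 bases of mt-Nd4 (Gm28439). The copy of mt-Nd3 (Gm28438) differed over 345 bases at 1 base, T3C, counted from the first base of the gene with the mitochondrial base first. The first 60 bases of this pair are shown because they hold its only difference, in capitals:
mt-Nd3: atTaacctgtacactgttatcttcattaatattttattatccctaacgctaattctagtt
Gm28438: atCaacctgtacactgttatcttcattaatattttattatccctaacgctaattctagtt
The 7 copies had 15 counts in all libraries together, so the missing counts were not listed under them. mt-Atp8, at bases 7766 to 7969 of the mitochondrial chromosome, shared 0% of its words with an annotated gene. Its place in the copy falls in a gap of 233 bases without annotation between Gm10925 and Gm28661 (24614652 to 24614884), as many bases as lie between the aligned parts of mt-Co2 and mt-Atp6, and the sequence of that gap was not analysed here. How reads that match several places were counted is not given in the sources used here, and its part in these zeros was not tested. This comparison of sequences was made after the zeros had been seen.

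**Figure D1:**
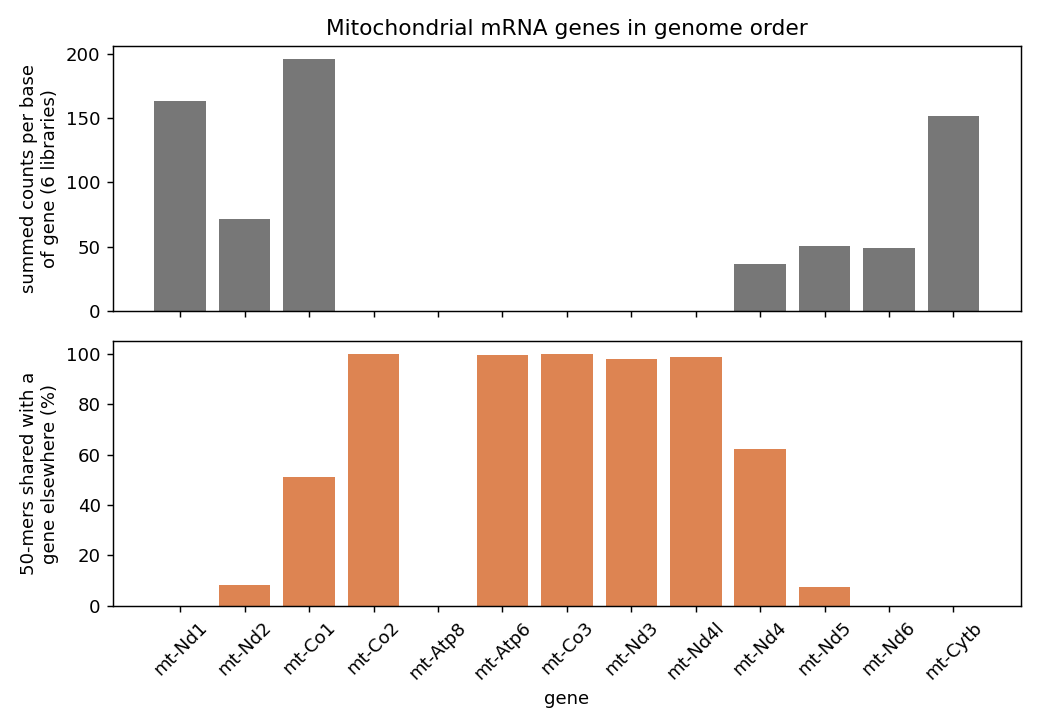
Upper bars give the counts of each mitochondrial mRNA gene summed over the 6 libraries per base of gene, and lower bars the percent of its 50-base words shared with an annotated gene elsewhere, both with genes in genome order. The 6 genes from mt-Co2 to mt-Nd4l have at most 2 counts, and 5 of them share 98.0% to 100% of their words, while mt-Atp8 shares none.

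The levels of the mRNAs differed widely between genes, compared as mean normalised CPM per kilobase of listed gene length over the 6 libraries. The 7 mitochondrial mRNAs with counts were the most abundant, from 657 per kilobase for mt-Nd4 to 3586 for mt-Co1. The levels of these 2 are uncertain because of the sequence they share with genes elsewhere. Counted per 50-base word that is not shared, mt-Nd4 had 99.9 counts over all libraries, above mt-Nd2 with 82.0, mt-Nd5 with 55.7 and mt-Nd6 with 53.6, so its place as the lowest depends on the length used, and mt-Co1 stayed the highest with 416. The 77 nuclear genes tested ran from 1.28 for Atp5g1 to 289 for Cox8a. Their medians by complex were 38.3 for complex I, 51.0 for II, 56.4 for III, 77.0 for IV and 37.8 for V. After Cox8a, the most abundant nuclear mRNAs were Atp5b, the catalytic beta subunit of the ATP synthase, at 270.2, Ndufa4 at 264 and Atp5a1, the alpha subunit, at 263. The 11 nuclear genes that shared more than 10% of their 50-base words with a gene elsewhere had a median of 11.8 per kilobase, against 46.4 for the other 73, and 44 nuclear genes shared none. Levels of these 11 nuclear genes, among them Atp5g1, Atp5g2, Cox7c, Ndufb4 and Uqcrb, are uncertain for the same reason. Of the genes called below, Cox7a2l belongs to them.

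In the KO, 5 of the 7 mitochondrial mRNAs tested rose and none fell. They were the complex I subunits mt-Nd1, mt-Nd2, mt-Nd4 and mt-Nd5 and the cytochrome b of complex III, mt-Cytb, and the fitted folds ran from 1.31 to 1.76. The median log2 fold change of the 7 was 0.52, beside 0.01 over all 12339 genes tested. A call is an adjusted p under 0.05 in edgeR's quasi-likelihood test, and 46.8% of all genes tested were called in this comparison, 23.2% higher and 23.5% lower.

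mt-Cytb, through which complex III passes electrons from ubiquinol, stood at 2174 and 2719.8 normalised CPM in wild type, 3803 and 4751 in KO cells and 3255 and 1956 in rescued cells. Both KO libraries lay above both wild-type libraries, by a log2 fold change of 0.81 ± 0.20 (SE, adjusted p = 0.0062). mt-Nd2, a membrane subunit of complex I, stood at 935 and 1115, then 1590.0 and 2025, then 1490.3 and 894 normalised CPM in the same order. Its log2 fold change in the KO was 0.82 ± 0.20 (adjusted p = 0.0051). For mt-Nd1, also a membrane subunit of complex I, the values were 2076 and 2510.5, 3362 and 3903, and 3019 and 1986, with a log2 fold change of 0.66 ± 0.17 in the KO (adjusted p = 0.0071). In these 3 genes the KO libraries were clear of wild type, the first rescue library lay above both wild-type libraries and the second below both.

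mt-Nd4 and mt-Nd5, also membrane subunits of complex I, had smaller fold changes. mt-Nd4 stood at 723 and 861 in wild type, 999.7 and 1274 in KO cells and 943 and 633 in rescued cells, a log2 fold change of 0.52 ± 0.17 in the KO (adjusted p = 0.025). mt-Nd5 stood at 1394 and 1599.6, 1761 and 2154, and 1748 and 1267, a log2 fold change of 0.39 ± 0.15 (adjusted p = 0.048). mt-Nd6, the only mRNA of the other strand, stood at 417 and 441, 459 and 583, and 482 and 371. Its libraries did not overlap between KO and wild type, but the difference of 0.28 ± 0.13 did not pass (adjusted p = 0.11). mt-Nd5 and mt-Nd6 overlap on opposite strands at bases 13552 to 13565, and without a stated strand setting reads there cannot be told apart.

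mt-Co1, the catalytic subunit of cytochrome oxidase and the most abundant of the mitochondrial mRNAs with counts, was the exception among the 7. It stood at 5472 and 6321 normalised CPM in wild type, 5175 and 5595 in KO cells and 5771 and 4910.3 in rescued cells, and the groups overlapped. The log2 fold change in the KO was -0.13 ± 0.11 (adjusted p = 0.36). Its share of all mitochondrial mRNA counts, which came almost wholly from these 7 genes, was 41.5% and 40.6% in wild type. The share was 30.2% and 27.6% in KO cells and 34.5% and 40.9% in rescued cells. The second rescue library lay within the wild-type range of this share, and the first between wild type and the KO.

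**Figure D2:**
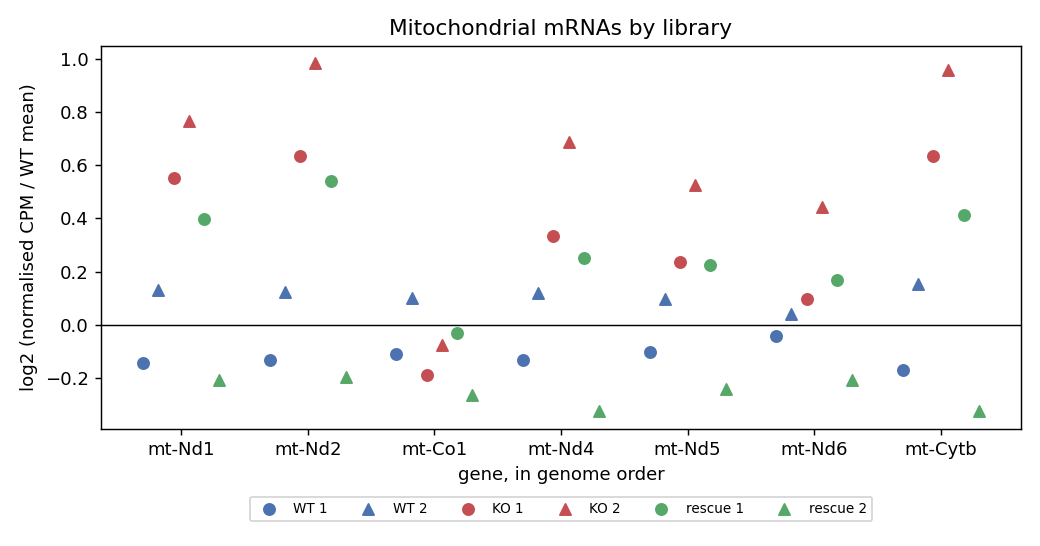
Each point is 1 library's level of a mitochondrial mRNA on the log2 scale relative to the wild-type mean (0), with circles for replicate 1 and triangles for replicate 2, and colours for wild type (blue), KO (red) and rescue (green). In 6 of 7 genes both KO libraries are above both wild-type libraries, the first rescue library is above wild type in the same number of genes, and the second is below wild type in 7 of 7. The share of all genes tested with such a separation is not given here. Within each group the 7 genes differ between its 2 libraries in the same direction, so they are not separate observations.

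The mitochondrial calls rested on few libraries. Without the first wild-type library, 0 of 7 were called higher in the KO, and without the second KO library also 0. Without the second wild-type library 4 were called and without the first KO library 6. DESeq2 called 0 of 7, with 3 at an unadjusted p under 0.05 and adjusted p-values of 0.0504 for mt-Nd2, 0.0545 for mt-Nd1 and 0.0586 for mt-Cytb. The median log2 fold change was between 0.33 and 0.68 in the fits that left out 1 library. Where a group was left with 1 library, that library is assumed to vary like the other groups. The fits without a wild-type or KO library also called a smaller share of all genes tested in this comparison. DESeq2 called 16.5% of all genes higher, beside 23.2% by edgeR.

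Of the 84 nuclear genes, 77 passed the filter on low counts. In the KO, 15 of them rose and 7 fell, that is 19.5% and 9.09%, and 28.6% in either direction. These shares are below the 23.2%, 23.5% and 46.8% of all genes tested. The median log2 fold change was 0.10, beside 0.01 over all genes. The genes that rose were 9 of complex I (Ndufa4, Ndufa5, Ndufa10, Ndufa13, Ndufb7, Ndufb10, Ndufs7, Ndufv1 and Ndufv2), 2 of complex II (Sdha and Sdhd), Cox5a of complex IV and 3 of complex V (Atp5b, Atp5g3 and Atp5o). Those that fell were 4 of complex I (Ndufa6, Ndufa7, Ndufb3 and Ndufv3), Uqcrh of complex III, and Cox6c and Cox7a2l of complex IV. Ndufa4, now placed in complex IV, is counted with complex I by its name, here and in the medians and sums by complex.

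Complex I held both the highest and the lowest changes. Ndufv3, an accessory subunit of the NADH-oxidising arm on chromosome 17 (31520115 to 31531326, GRCm38), stood at 128 and 111 normalised CPM in wild type, 62.4 and 62.0 in KO cells and 82.9 and 113 in rescued cells. It fell by 0.94 ± 0.13 on the log2 scale in the KO (1.91-fold, adjusted p = 0.00016). Ndufa6, an accessory subunit of the LYR-motif family on chromosome 15 (82350139 to 82354291), stood at 95.8 and 92.8, 54.1 and 59.9, and 61.1 and 72.6, and fell by 0.73 ± 0.10 in the KO (1.66-fold, adjusted p = 0.00016). Both KO libraries of each gene lay far below wild type. Ndufa7, another accessory subunit, stood at 77.9 and 81.4, 60.8 and 63.5, and 71.3 and 71.0, and fell by 0.36 ± 0.08 (adjusted p = 0.0044).

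On the other side, Ndufa5, an accessory subunit of the arm that leads electrons to ubiquinone, stood at 29.4 and 27.1 normalised CPM in wild type, 45.4 and 49.2 in KO cells and 41.0 and 33.8 in rescued cells. It was 1.67-fold higher in the KO (log2 0.74 ± 0.12, adjusted p = 0.00036). Ndufb7, an accessory subunit of the membrane arm, stood at 50.9 and 52.4, 75.1 and 77.1, and 67.6 and 60.2, 1.47-fold higher (log2 0.56 ± 0.09, adjusted p = 0.00047). These 5 complex I genes are all accessory subunits, whose proteins surround the catalytic core. The core subunits encoded in the nucleus that rose were Ndufv1 (0.42 ± 0.11, adjusted p = 0.0089), Ndufv2 (0.29 ± 0.11, adjusted p = 0.041) and Ndufs7 (0.38 ± 0.10, adjusted p = 0.0083), which carry flavin or iron-sulphur centres. The remaining complex I genes that rose had log2 fold changes of 0.28 to 0.34, and Ndufb3 fell by 0.29.

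Complex II, succinate dehydrogenase, also belongs to the tricarboxylic acid cycle, and its 4 genes were all tested. Sdhd, a membrane anchor, stood at 74.1 and 87.8 normalised CPM in wild type, 104 and 106 in KO cells and 88.8 and 84.2 in rescued cells, and rose by 0.37 ± 0.10 on the log2 scale (adjusted p = 0.0081). Sdha, the flavoprotein, stood at 210.2 and 213, 247 and 249.6, and 229 and 209, and rose by 0.23 ± 0.08 (adjusted p = 0.034). The other two did not pass: Sdhb, the iron-sulphur subunit, had a log2 fold change of 0.14 ± 0.08 (adjusted p = 0.17) and Sdhc, the other anchor, one of -0.00 ± 0.09 (adjusted p = 0.98).

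In complex III 1 of 8 nuclear genes was called, Uqcrh, the hinge protein, which stood at 94.0 and 90.7 in wild type and 77.1 and 81.3 in KO cells and fell by 0.22 ± 0.08 (adjusted p = 0.048). The summed level of the 8 was 655 and 685 normalised CPM in wild type, 665 and 675 in KO cells and 661 and 683 in rescued cells. In complex IV, Cox5a, a matrix-side subunit of the enzyme, stood at 68.4 and 82.3 in wild type, 99.8 and 103 in KO cells and 92.8 and 90.6 in rescued cells, and rose by 0.42 ± 0.10 (adjusted p = 0.0042). Cox6c fell by 0.31 ± 0.08 (adjusted p = 0.0081) and Cox7a2l by 0.27 ± 0.10 (adjusted p = 0.037). In complex V, Atp5g3, 1 of 3 genes for the same membrane ring subunit c, stood at 164 and 164, 217 and 213, and 177 and 152. It rose by 0.39 ± 0.09 (adjusted p = 0.0037), and both KO libraries lay above all others. The related genes Atp5g1 and Atp5g2 were not called and are among the 11 that share sequence. Atp5o, the stalk subunit that confers oligomycin sensitivity, rose by 0.32 ± 0.09 (adjusted p = 0.010) and Atp5b by 0.25 ± 0.08 (adjusted p = 0.031). Atp5a1, at 745 and 789 in wild type and 906 and 847 in KO cells, did not pass (0.19 ± 0.08, adjusted p = 0.081).

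**Figure D3:**
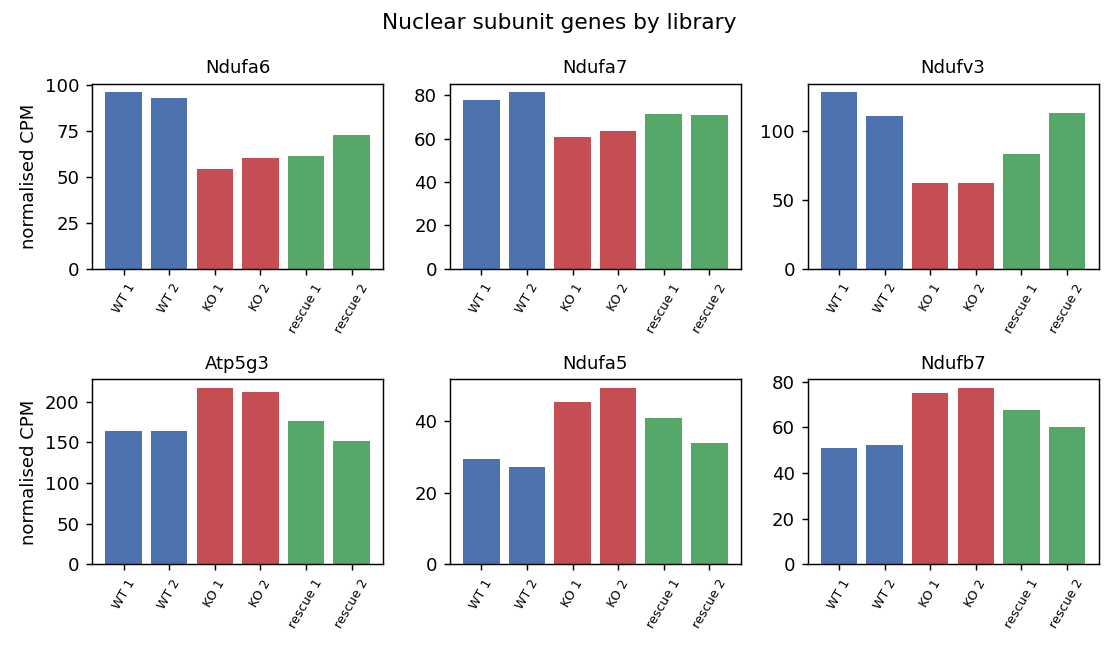
Bars give the normalised CPM of 6 nuclear subunit genes in each library, with wild type in blue, KO in red and rescue in green, on linear axes from 0. Ndufa6, Ndufa7 and Ndufv3 are lower, and Atp5g3, Ndufa5 and Ndufb7 higher, in either KO library than in any wild-type one.

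Of the 22 nuclear calls, 6 were made in each of the 4 fits that left out a wild-type or KO library: Ndufa6, Ndufa7 and Ndufv3 among those that fell, and Atp5g3, Ndufa5 and Ndufb7 among those that rose. The number that rose was 3 without the first wild-type library, 11 without the second wild-type one, 7 without KO library 1 and 6 without KO library 2, and the number that fell was 3 or 4 in these fits. DESeq2 called 10 of the 15 and 4 of the 7, and of all genes tested it called 16.5% higher and 19.0% lower. The fits without a wild-type or KO library also called smaller shares of all genes tested than the 23.2% and 23.5% with all libraries. With libraries scaled by total counts alone, 32 rose and 3 fell, but that scaling moves the median of all genes from 0.01 to 0.14 and turns the split of all calls from 2867 higher and 2905 lower into 4013 and 2237. Of the genes called, Atp5o, Cox5a, Cox6c and Ndufa13 share exon bases with a gene of the other strand, and reads of such pairs cannot be told apart without a stated strand setting. So do 24 of the 77 nuclear genes tested in all.

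The isoforms of cytochrome oxidase subunits kept to the forms of non-muscle tissue in all 3 groups. Cox4i1 stood at 261 to 289 normalised CPM, Cox6a1 at 153 to 181, Cox6b1 at 114 to 120.0, Cox7a2 at 58.0 to 66.9 and Cox8a at 143 to 176, and none was called in the KO. Their alternatives had almost no reads over the 6 libraries together: Cox4i2, the lung and oxygen-dependent form, had 5 counts, the heart and muscle forms Cox6a2 and Cox8b had 4 each, the testis form Cox6b2 had 10, and Cox7b2 and Cox8c had 0. Ndufa4l2, a hypoxia-induced relative of Ndufa4, had 11 counts, 5 of them in the second KO library. These 7 genes were not tested. Cox7a1, the muscle form of Cox7a2, was just high enough to test, at 3.21 and 2.54 in wild type, 1.25 and 1.95 in KO cells and 2.41 and 3.73 in rescued cells, with a log2 difference of -0.87 ± 0.37 in the KO that did not pass (adjusted p = 0.073). The muscle markers Ckm, Myh4 and Tnnt3 had 0 counts in every library.

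Against the KO, the rescue gave few calls. Of the 77 nuclear genes 1 rose and 3 fell, and of the 7 mitochondrial ones mt-Cytb fell and none rose. The background was 14.2% of all genes called, 8.35% higher and 5.88% lower, against 1.30% higher and 3.90% lower of the nuclear genes. Ndufv3 rose by 0.65 ± 0.13 (adjusted p = 0.010), and Atp5g3 fell by 0.39 ± 0.09 (adjusted p = 0.017), Ndufb10 by 0.35 ± 0.09 (adjusted p = 0.027) and Atp5e, the epsilon subunit, by 0.39 ± 0.10 (adjusted p = 0.026). mt-Cytb fell by 0.72 ± 0.20 (adjusted p = 0.036), and the complex I mRNAs called in the KO had values of -0.60 for mt-Nd2, -0.54 for mt-Nd1, -0.53 for mt-Nd4 and -0.38 for mt-Nd5 that did not pass, with adjusted p-values of 0.055 to 0.11. The medians were -0.10 for the nuclear and -0.53 for the mitochondrial genes, beside -0.00 for all genes. None of these calls was made in every fit that left out a library of either group. Without the first rescue library, the one nearer to the KO in its mitochondrial mRNAs, 6 of 7 mitochondrial genes fell, and 11 nuclear genes fell and 4 rose. These are 14.3% and 5.19% of the nuclear genes, beside 12.5% of all genes lower and 14.5% higher in that fit. Without the second, 0 mitochondrial and 0 nuclear genes fell and 1 nuclear gene rose. DESeq2 called 1 nuclear gene higher and 1 lower and 0 mitochondrial genes.

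Against wild type, the rescue had 2 nuclear genes higher and 3 lower of 77, and 0 of 7 mitochondrial genes in either direction, with 0 at an unadjusted p under 0.05 and 0 by DESeq2. The background was 22.2% of all genes called, 10.2% higher and 12.0% lower. Ndufa5 and Ndufb7 were higher, by 0.41 ± 0.12 (adjusted p = 0.032) and 0.31 ± 0.09 (adjusted p = 0.036), and Ndufa6 and Ndufb3 lower, by -0.50 ± 0.10 (adjusted p = 0.0051) and -0.44 ± 0.11 (adjusted p = 0.014). Cox7b was lower by -0.28 ± 0.09 (adjusted p = 0.046). None of these 5 calls was made in each of the 4 fits that left out a wild-type or rescue library. Ndufa6 was called in 3 of them, Ndufb3 in 2, Ndufa5 and Ndufb7 in 1 and Cox7b in 0. Without the first wild-type library 0 nuclear genes were called in either direction, with 7 at an unadjusted p under 0.05. DESeq2 called 0 higher and 1 lower. The mitochondrial result depended on the library: without the second rescue library 3 of 7 were higher than in wild type, and without the first 0 were called in either direction and 4 had an unadjusted p under 0.05. The median of the 7 was 0.25 without the second rescue library and -0.25 without the first.

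Side by side, of the 22 nuclear genes called in the KO against wild type, 3 (Atp5g3, Ndufb10 and Ndufv3) moved back with a call when the rescue was compared with the KO, and 4 (Ndufa5, Ndufa6, Ndufb3 and Ndufb7) were called in the same direction in the rescue against wild type, with the dependence on single libraries given above. For the 5 mitochondrial genes these numbers were 1 and 0. The same numbers over all 5772 genes called in the KO are not given here, so no background stands beside these. These comparisons share libraries and are not independent. The remaining 15 nuclear genes passed neither test.

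**Figure D4:**
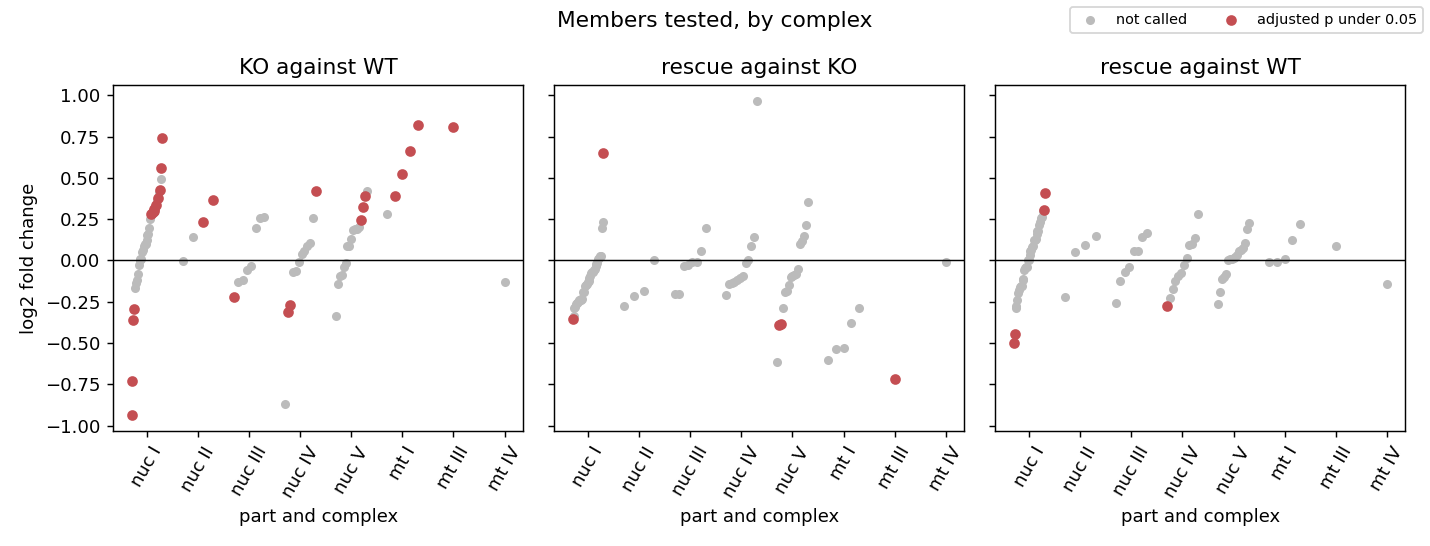
Each point is the fitted log2 fold change of 1 gene in 1 of the 3 comparisons, grouped by complex for nuclear (nuc) and mitochondrial (mt) genes and sorted within each column, with genes of adjusted p under 0.05 in red. In the KO against wild type the nuclear genes spread from -0.94 to 0.74 around a median of 0.10, while 6 of 7 mitochondrial genes are above 0, and few points are red in the other comparisons.

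Summed over genes, the mitochondrial mRNAs stood at 13190.5 and 15568 normalised CPM in wild type, 17150.4 and 20286 in KO cells and 16708 and 12018 in rescued cells. This sum, and the ratio and shares below, rest on the 7 mitochondrial genes with counts, since the other 6 had at most 2. The nuclear mRNAs stood at 6974 and 7282, 7668 and 7779, and 7357 and 7223. The KO mean was 1.30 times the wild-type mean for the mitochondrial sum and 1.08 times for the nuclear sum. The ratio of the sums was 1.89 and 2.14 in wild type, 2.24 and 2.61 in KO cells and 2.27 and 1.66 in rescued cells. Both KO libraries lay above wild type in this ratio, and the rescue libraries spanned the whole wild-type range, 1 above it and 1 below. The first rescue library also lay above the first KO library, so the KO and the rescue overlapped in the ratio. With mt-Co1 left out, the mitochondrial sum was 7719 and 9248, 11975 and 14691, and 10937 and 7107, and the KO mean was 1.57 times that of wild type. As shares of all counts, the mitochondrial mRNAs took 1.25% and 1.501% in wild type, 1.78% and 2.13% in KO cells and 1.68% and 1.19% in rescued cells, and the nuclear ones 0.661% and 0.702%, 0.797% and 0.815%, and 0.740% and 0.713%. Groups of 2 libraries cannot give an exact permutation p (two-sided) below 0.333, so the sums are a description.

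By complex, the nuclear sum of the ATP synthase was 2782 and 2913 normalised CPM in wild type, 3267 and 3219 in KO cells and 3079.7 and 3002 in rescued cells. Complex II summed to 492 and 512, 563 and 581, and 523 and 492. In both complexes the KO libraries lay above all others. The KO means were 1.14 times the wild-type mean for complexes II and V, 1.06 for complex I, 1.02 for complex IV and 1.00 for complex III. Atp5b and Atp5a1 make up much of the complex V sum.

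**Figure D5:**
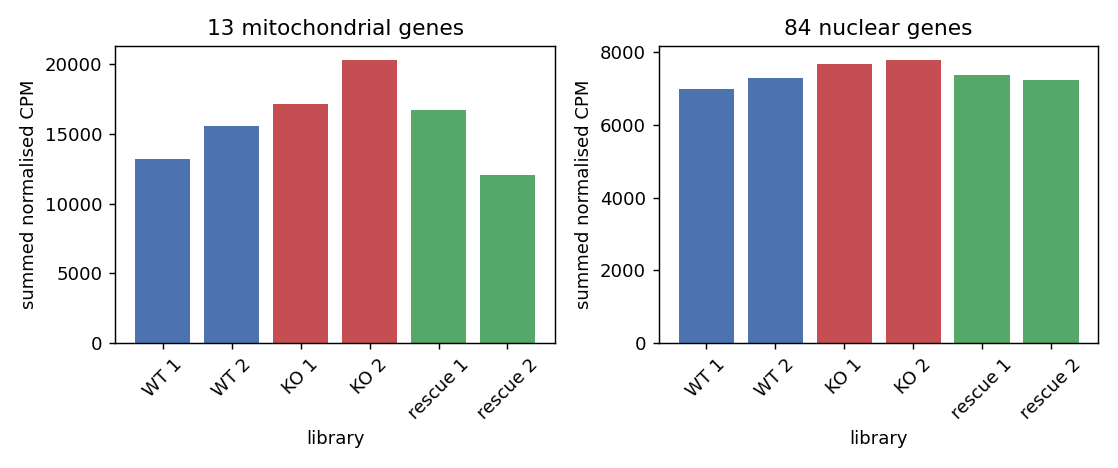
Bars give the summed normalised CPM of the 13 mitochondrial genes (left) and the 84 nuclear genes (right) in each library. Of the 13, 6 had at most 2 counts over all libraries, so the left bars rest on the other 7. Wild type is blue, KO red and rescue green, and axes are linear from 0. The mitochondrial sum runs from 12018 to 20286 and the nuclear sum from 6974 to 7779, and both are highest in the KO libraries.

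Nuclear respiratory genes share recognition motifs of NRF1, of ETS factors such as GABP, and of YY1 in their promoters. In RefSeq's GRCm38.p6 annotation, 66 of the 84 nuclear genes had a promoter entry, and the 250 bases before the start were searched on both strands. The NRF1 core GCGCANGCG was found in 14 of 66 (21.2%), against 5.86% of 27025 genes with an entry. The ETS core CCGGAAG was found in 12 (18.2%), against 7.83%, and the YY1 core ATGGCGG in 4 (6.06%), against 2.58%. Atp5h, Atp5l, Cox6a1 and Sdhd held both the NRF1 and the ETS core. The windows of these genes had a median GC content of 55.8% against 52.4%. By change in the KO, the NRF1 core was found in 3 of 15 genes that rose (Ndufa5, Sdha and Sdhd), in 0 of 6 that fell and in 11 of 42 that were not called. The ETS core was found in 2, 1 and 9 of these. A match of letters is not a binding site, and no binding was measured.

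For 3 of the called genes the stretch directly before the start that no GENCODE exon covers is shown, to set a promoter with a match beside those of a gene that rose and of a gene that fell without one. They were picked after the matches had been seen. Sdhd lies on the minus strand (chr9:50603850-50603909, 60 bases), with the ETS core on its opposite strand in capitals, starting 46 bases before the start, and its NRF1 match lies further out, beyond the stretch shown. Atp5g3, which rose, lies on the minus strand (chr2:73911327-73911576, 250 bases), and Ndufv3, which fell, on the plus strand (chr17:31519981-31520114, 134 bases), and neither held any of the 3 cores:
Sdhd: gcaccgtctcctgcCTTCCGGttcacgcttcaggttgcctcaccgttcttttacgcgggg
Atp5g3: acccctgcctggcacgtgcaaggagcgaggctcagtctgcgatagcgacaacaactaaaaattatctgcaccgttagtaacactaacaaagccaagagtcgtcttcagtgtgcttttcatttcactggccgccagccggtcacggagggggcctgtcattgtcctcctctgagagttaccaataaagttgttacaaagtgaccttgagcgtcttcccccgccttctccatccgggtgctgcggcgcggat
Ndufv3: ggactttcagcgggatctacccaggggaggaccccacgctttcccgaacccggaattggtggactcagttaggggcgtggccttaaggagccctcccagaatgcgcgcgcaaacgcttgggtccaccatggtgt

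The regulators of respiratory genes did not move together. Of 10 on the list 3 rose (30%) and 2 fell (20%) in the KO, beside 23.2% and 23.5% of all genes tested. Fewer of the 10 passed without the second wild-type library, in a fit that also called fewer of all genes tested. Pprc1, a PGC-1 related coactivator, stood at 76.6 and 82.2 normalised CPM in wild type, 143 and 125 in KO cells and 127 and 86.8 in rescued cells (log2 0.76 ± 0.15 in the KO, adjusted p = 0.0014). The coactivators Ppargc1a (1.02 ± 0.30, adjusted p = 0.016) and Ppargc1b (2.20 ± 0.51, adjusted p = 0.0044) rose as well, Ppargc1b from at most 0.47 to at most 2.01 normalised CPM. Myc, a transcription factor that also acts on nuclear genes for mitochondrial proteins, stood at 231 and 234, 152 and 128, and 201 and 233. It fell by 0.73 ± 0.10 in the KO (adjusted p = 0.00018) and rose by 0.63 ± 0.10 in the rescue against the KO (adjusted p = 0.0040). Gabpb1 fell by 0.28 ± 0.10 (adjusted p = 0.035). Nrf1 and Gabpa, named after their values were seen because the motifs above are theirs, had log2 differences of -0.06 ± 0.10 and -0.06 ± 0.08 (adjusted p = 0.67 and 0.56).

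In 8 lists of the machinery that makes, matures, imports and assembles the subunits or feeds the chain, 26.7% to 60% of the genes rose in the KO, beside 19.5% of the nuclear subunits and 23.2% of all genes tested. The lowest of these shares are close to that of all genes. Without the first wild-type library, in a fit that called 13.4% of all genes higher, 6.67% to 40% of the lists' genes rose. These lists were not tested against each other. Of 15 factors that copy and transcribe mitochondrial DNA, 4 rose and 0 fell (26.7%), with Mgme1, a nuclease of mitochondrial DNA, at 0.85 ± 0.16, the RNA polymerase Polrmt at 0.48 ± 0.11 and the DNA polymerase Polg at 0.33 ± 0.09 (adjusted p = 0.0013, 0.0040 and 0.0091). Leaving out wild-type library 1 left 1 that rose, and leaving out KO library 1 left 2. Of 20 genes for processing and stability of mitochondrial RNA, 9 rose and 1 fell (45%). Elac2, which cuts the 3′ ends of mitochondrial tRNAs, stood at 20.5 and 24.5 normalised CPM in wild type, 50.4 and 47.2 in KO cells and 36.4 and 35.6 in rescued cells. It rose by 1.11 ± 0.11 (adjusted p = 2.2e-05) and fell by 0.44 ± 0.11 in the rescue against the KO (adjusted p = 0.022). In the rescue it stayed above wild type, by 0.67 ± 0.12 (adjusted p = 0.0021). It was the only 1 of the 20 that fell in the rescue against the KO (5%, beside 5.88% of all genes tested). Against wild type, 4 of the 20 were higher in the rescue (20%, beside 10.2% of all genes tested). Rexo2, an RNA exonuclease, rose by 0.89 ± 0.12 and Lrpprc, which stabilises mitochondrial mRNAs, by 0.64 ± 0.10 (adjusted p = 0.00016 and 0.00047). In this list 4 genes rose without the first wild-type library, and 6 by DESeq2.

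Of 75 mitochondrial ribosome proteins 31 rose and 1 (Mrpl14, named after its value was seen) fell, 41.3% higher with a median of 0.25. Mrps6 stood at 27.3 and 31.3 normalised CPM in wild type, 51.2 and 50.2 in KO cells and 33.3 and 29.4 in rescued cells, and rose by 0.79 ± 0.11 (adjusted p = 0.00015). Mrpl49 and Mrpl18 rose by 0.65 ± 0.11 and 0.61 ± 0.11. All 3 fell in the rescue against the KO, where 6 of 75 fell (8%) and 0 rose. Of all genes tested, 5.88% fell and 8.35% rose in that comparison. Of 9 translation factors 3 rose, Tsfm by 0.57 ± 0.11, Gfm1 by 0.49 ± 0.10 and Gfm2 by 0.47 ± 0.10, and 0 fell. Without the first wild-type library 18 ribosome proteins rose, and 21 or 22 in the other fits without a wild-type or KO library and by DESeq2.

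Of 15 assembly factors of complex I 5 rose and 0 fell (33.3%). The number that rose was 2 without the first wild-type library, 3 without the second and 3 by DESeq2. Ndufaf4 stood at 7.96 and 10.5 in wild type, 20.3 and 19.9 in KO cells and 14.96 and 11.6 in rescued cells, and rose by 1.12 ± 0.17 (adjusted p = 0.00035). Tmem186 and Ndufaf2 rose by 0.71 ± 0.14 and 0.72 ± 0.18. Of 30 assembly factors of complexes II to V 8 rose and 1 fell (26.7%). Cox10, which makes the heme O precursor of cytochrome oxidase, stood at 14.96 and 13.3, 27.8 and 30.4, and 23.2 and 19.7, and rose by 1.04 ± 0.14 (adjusted p = 0.00011). Coa7 and Uqcc3, factors for complexes IV and III, rose by 0.85 ± 0.17 and 0.91 ± 0.18. Of 10 import and folding genes 6 rose and 0 fell, among them Hspd1 and Hspe1, the chaperonin pair, by 0.73 ± 0.10 and 0.68 ± 0.10, and the import pore Tomm40 by 0.48 ± 0.09. Of 13 tricarboxylic acid cycle genes 5 rose and 0 fell, among them Idh3a by 0.55 ± 0.09, Sucla2 by 0.37 ± 0.08 and citrate synthase Cs by 0.33 ± 0.09. Without the first wild-type library, and also without the first KO library, 2 of the 13 rose. Of 5 further subunits and carriers that the choice by name leaves out, 0 were called in the KO by edgeR, with 1 at an unadjusted p under 0.05, and 0 by DESeq2. In the rescue against the KO, the numbers lower in these lists were 2 of 15, 2 of 30, 1 of 10 and 0 of 13, and 0 were higher. These are 13.3%, 6.67%, 10% and 0% lower, beside 5.88% of all genes tested lower and 8.35% higher.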

How the data were processed

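RNA-seq was measured in 6 libraries of KP2 cells, 2 per group, mapped to groups by their titles. Each of the deposited tables, per the file headers, lists 41388 genes with a count, a CPM and an RPKM value. The deposited CPM is the count per 1000000 counts of the file's total and the deposited RPKM divides this CPM by the listed length in kilobases, as checked against the counts, and both served only for that check. Per the submitters' processing notes, the tools named are bcl2fastq, STAR 2.0.4b, Subread and featureCounts 1.45, with the build GRCm38. For strand and for reads that match several places, no setting is given in the sources used here. Symbols came from GENCODE M21 for 40254 identifiers.

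edgeR 4.0.16 in R 4.3.3 was run on the counts. filterByExpr (minimum count 10, minimum total 15) left 12339 genes tested and 29049 not. Libraries were scaled by TMM, a quasi-likelihood model with 1 mean per group was fitted to all 6 (3 residual degrees of freedom), with Benjamini-Hochberg adjustment over all genes tested. The standard error is the log2 fold change over the square root of F. The fit was tested on simulated data. Alternatives were DESeq2 1.42.0, other scalings and filters, only the 2 groups compared, a replicate block, and leaving out each library. Shared 50-base words were found by exact matching to GENCODE transcripts. Promoters are from RefSeq.

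The members, lists, tests and alternatives were chosen with earlier results of these data known. The genes named are the mitochondrial members, the 5 highest and 5 lowest called nuclear members of each comparison with a mean of at least 5 CPM, the called member of each complex with the smallest adjusted p, the Sdh genes, the tissue isoforms, Irak4 and up to 3 called genes of each list. Others in the text are named as members of a count or for their abundance, after their values were seen.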

Additional observations from a re-analysis of the deposited data

How the results depend on the processing

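With all libraries, as reported, the KO against wild type had 15 nuclear genes higher and 7 lower and 5 mitochondrial genes higher, the rescue against the KO 1 and 3 nuclear genes and 1 mitochondrial gene lower, and the rescue against wild type 2 and 3 nuclear genes. With libraries scaled by total counts, the KO against wild type had 32 nuclear genes higher and 3 lower (median 0.22), the rescue against the KO 10 nuclear and 4 mitochondrial genes lower (nuclear median -0.17), and the rescue against wild type 6 nuclear genes higher (median 0.071). Over all genes this scaling turned 1030 higher and 726 lower in the rescue against the KO into 837 and 1185, and 1263 and 1481 against wild type into 1690 and 1214. DESeq2 called 4 nuclear genes lower and 0 mitochondrial genes higher in the KO, 1 nuclear and 0 mitochondrial genes lower in the rescue against the KO, and 0 nuclear genes higher and 1 lower in the rescue against wild type. With only the 2 groups compared in the fit, these were 1 and 0 lower against the KO and 0 higher against wild type. With no filter, 6 mitochondrial genes were lower in the rescue against the KO and 1 nuclear gene was higher against wild type. With a replicate block, 4 nuclear genes were lower in the KO, 1 nuclear and 0 mitochondrial genes were lower in the rescue against the KO and 0 nuclear genes were higher in the rescue against wild type. Deviations of equally numbered libraries correlated at 0.04 (wild type and KO), -0.15 (wild type and rescue) and -0.19 (KO and rescue). These values gave no sign that equal numbers pair the libraries. With 2 libraries per group they cannot decide whether libraries were handled in pairs. Crossing the rescue numbers in the block, chosen after seeing the data, gave 8 nuclear and 6 mitochondrial genes lower against the KO, and 4 nuclear genes higher and 5 lower against wild type. For these settings, beyond what their construction shows, the cause was not tested.

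For the summed levels, leaving out mt-Co1 gave a log2 difference between KO and wild type of 0.65 for the mitochondrial sum and 0.53 for the ratio. As shares of total counts the nuclear differences were 0.24 (KO against wild type), -0.15 (rescue against KO) and 0.093 (rescue against wild type), and as a median over genes the last was 0.0037.

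In the fits that left out 1 library, the KO against wild type had 3 to 20 nuclear genes higher, 3 to 7 lower and 0 to 6 mitochondrial genes higher. The rescue against the KO had 0 to 4 nuclear genes higher, 0 to 11 lower and 0 to 6 mitochondrial genes lower, with a mitochondrial median of -0.84 to -0.27. The rescue against wild type had 0 to 3 nuclear genes higher, 0 to 4 lower and 0 to 3 mitochondrial genes higher, with medians of -0.042 to 0.038 (nuclear) and -0.25 to 0.25 (mitochondrial). Of the summed levels, the nuclear differences were 0.085 to 0.15 (KO against wild type) and 0.0016 to 0.064 (rescue against wild type), those of the mitochondrial sum 0.26 to 0.50 (KO against wild type), -0.63 to -0.16 (rescue against KO) and -0.25 to 0.22 (rescue against wild type), and those of the log2 ratio 0.15 to 0.37 (KO against wild type, 0.26 with all libraries), -0.54 to -0.089 (rescue against KO) and -0.27 to 0.18 (rescue against wild type). Over all genes tested, these fits called 1688 to 3297 genes higher and 2005 to 3414 lower in the KO against wild type (2867 and 2905 with all libraries), 139 to 1849 and 64 to 1596 in the rescue against the KO (1030 and 726), and 417 to 1699 and 691 to 1953 in the rescue against wild type (1263 and 1481). The numbers of subunit genes called in these fits are to be read against these. At this depth the 7 nuclear genes that were not tested, with at most 11 counts each over all libraries, allow no fold change. None of the named genes reversed its sign among called values under any setting run.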

Other observations

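The mitochondrial ribosomal RNAs, which carry no protein code and lie outside the subunit genes, moved in opposite directions. mt-Rnr1, the small-subunit RNA, stood at 471 and 471 normalised CPM in wild type, 360.1 and 355 in KO cells and 537 and 447 in rescued cells. It fell by 0.40 ± 0.10 on the log2 scale in the KO (edgeR, adjusted p = 0.0052) and rose by 0.46 ± 0.10 in the rescue against the KO (adjusted p = 0.012). mt-Rnr2, the large-subunit RNA, stood at 1006 and 1062, 1449 and 1534, and 1175 and 687, rose by 0.53 ± 0.18 in the KO (adjusted p = 0.032) and fell by 0.68 ± 0.18 in the rescue against the KO (adjusted p = 0.031). In both RNAs the first rescue library lay above both wild-type libraries and the second below both. These calls are from the fit to all libraries, and results without single libraries or by DESeq2 are not given for them. Both were named after their values were seen, and both were counted in oligo-dT selected RNA.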
